A study of Mus musculus with 53 samples.

Results

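The data described here are the 13 arrays of mouse tumors that carry both the human fusion gene *SS18-SSX1* and *miR-214* (SS214), out of 53 arrays in the series. They were split by the number in their titles into tumors 13, 14, 15 and 16 and tumors 1 to 9, and the 4 were compared with the 9 across all genes. The labels give the number and nothing else that sets these tumors apart: no mouse, donor culture, tumor age or day of handling, and no title among these arrays holds the numbers between 9 and 13. Whether the 13 tumors came from separate mice or separate transductions is not given for each array, so a p-value here speaks of the spread among these 13 samples alone.

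The study made a model of synovial sarcoma by putting *SS18-SSX1* into embryonic mesenchymal cells (eMCs) of BALB/c mice with the retrovirus pMYs and growing the cells under the skin of nude mice. SS214 tumors received *miR-214* in addition, and 12 tumors with *SS18-SSX1* alone (SS) are used here for reference. All tumors described here therefore carry the fusion gene, delivered by a retrovirus that lands at different places in the genome. Nude mice lack a thymus and with it most T cells, while other host cells remain. Bulk tumor RNA mixes tumor cells with host cells, and fewer cells of a type and less RNA per cell cannot be told apart in it. RNA was labelled with biotin and hybridised to GeneChip arrays, and each array gave 1 intensity for each of 45141 probe sets.

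Synovial sarcoma is a soft tissue tumor driven by the fusion of SS18, a subunit of the SWI/SNF chromatin remodelling complex, with an SSX protein. *miR-214* is a microRNA made from *Dnm3os*, a transcript that runs opposite to the dynamin gene *Dnm3* and is active in embryonic mesenchyme, limb and skeleton. A microRNA lowers the output of messages that pair with its seed, bases 2 to 8. Both strands of the mouse hairpin, the molecule that all 13 tumors were made to carry, are shown from RefSeq (GRCm38.p6) with the seed in capitals. They lie on the forward strand of chromosome 1, at chr1:162223397-162223418 for the 5p strand and chr1:162223438-162223459 for the 3p strand.
mmu-miR-214-5p: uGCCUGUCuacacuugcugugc
mmu-miR-214-3p: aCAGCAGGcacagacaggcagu
The arrays measure messenger RNA, and the level of the mature microRNA in these tumors was not analysed here.

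Tumors 13 to 16 had higher levels of lung epithelial genes and of several matrix and contractile genes than tumors 1 to 9. Single developmental regulators such as *Tbx20* were also higher. A short list of genes was lower in tumors 13 to 16, with the largest falls in 1700006J14Rik, *Cartpt* and *Nrn1*, which overlapped between the groups. *Tbx2* and *Nr5a2* had the largest falls without overlap. Values are log2 intensities after intensities below 11.7 were raised to that floor, and a difference of 1 is a 2-fold change on that floored scale. A gene was called at an adjusted p under 0.05 (limma, Benjamini-Hochberg) with a fold change over 2. Of 15473 genes tested, 116 were called higher in tumors 13 to 16 (0.75%) and 17 lower (0.11%). The 2 groups did not overlap in 232 genes that were higher (1.5%) and 194 that were lower (1.25%), and the median difference over all genes was -0.01. At the adjusted p alone, whatever the fold, 274 genes were higher (1.77%) and 162 lower (1.05%).

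Of these calls 87.2% were higher, and after quantile normalization, with 82 higher and 28 lower, 74.5%. The counts moved with single tumors. Leaving out tumor 15 left 20 genes higher and 0 lower, leaving out tumor 13 left 31 and 4, and leaving out tumor 7 raised them to 355 and 41. Without tumor 4, 5 or 9 the higher genes numbered 58, 56 and 67 and the lower genes 9, 11 and 7, and without tumor 1, 3, 6, 8 or 16 the lower genes numbered 8 to 10. Of the 116 higher genes, 8 belonged to a list of lung epithelial markers and 108 lay outside it. Of those 108, 50 did not overlap between the groups, and their differences ran from 1.01 to 2.92 with a median of 1.38.

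**Figure D1:**
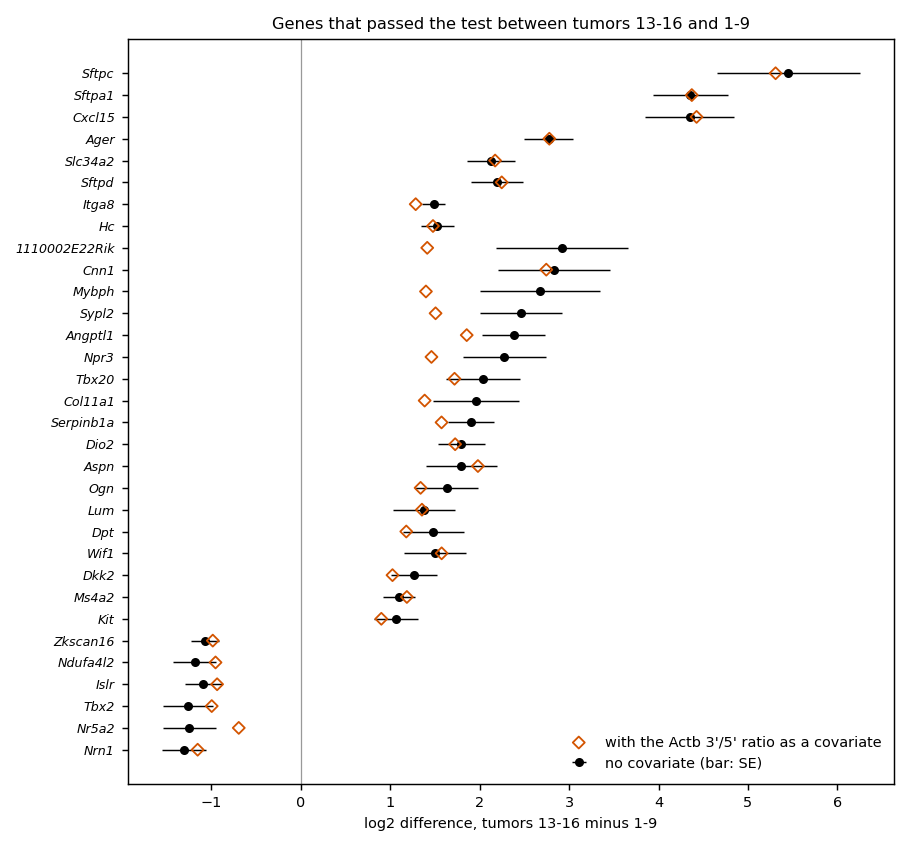
Log2 difference between tumors 13 to 16 and tumors 1 to 9 (x axis, positive where tumors 13 to 16 were higher) for 32 called genes, 1 a line. Black points with bars are the difference and its SE, and open diamonds are the difference with the *Actb* 3′ to 5′ ratio as a covariate. The lung genes at the top reach 5.45, and the diamonds keep the side of 0 of the black points. The genes were chosen for these differences, so the kept side is no support.

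Lung epithelial genes gave the 3 largest differences. *Sftpc*, the surfactant protein of alveolar type II cells, stood at 11.77, 9.46, 11.04 and 11.83 in tumors 13, 14, 15 and 16, and at 3.77, 5.98 and 8.57 (lowest, median and highest) in tumors 1 to 9. It was higher by 5.45 ± 0.80 (difference ± SE, adjusted p = 0.00645, limma), and the groups did not overlap. Tumor 3, the highest of tumors 1 to 9, stayed below tumor 14, the lowest of the 4. SS tumors ran from 3.55 to 6.54, and a mix of normal tissues that includes lung reached 12.72 (mean of 4 arrays).

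*Sftpa1*, another surfactant protein, stood at 9.50, 6.31, 7.98 and 9.12 in tumors 13 to 16 against 3.56, 3.93 and 4.20 in tumors 1 to 9 (difference 4.36 ± 0.41, adjusted p = 0.000492, limma). *Cxcl15*, a chemokine made by lung epithelium, stood at 10.02, 7.63, 8.68 and 9.93 against 3.91, 4.61 and 6.76 (difference 4.35 ± 0.50, adjusted p = 0.00108, limma), and its highest value outside tumors 13 to 16 was again in tumor 3. *Ager*, a receptor of alveolar type I cells, stood at 7.71, 5.91, 6.79 and 7.86 against 3.99, 4.25 and 4.58 (difference 2.77 ± 0.27, adjusted p = 0.000492, limma). In each of these genes tumor 14 was the lowest of the 4, and still above every one of tumors 1 to 9.

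The other called members of the list were *Sftpd*, a surfactant protein that binds microbes, *Slc34a2*, a phosphate transporter of type II cells, *Scgb3a2*, an airway secretoglobin, and *Chil1*, a chitinase-like protein. They were higher by 2.19 ± 0.29, 2.13 ± 0.27, 1.39 ± 0.22 and 1.40 ± 0.31. *Scgb1a1*, the main secretoglobin of airway club cells, stood at 6.64, 4.87, 3.95 and 8.81 in tumors 13 to 16 against 3.82, 3.93 and 4.29 and missed the threshold (adjusted p = 0.0696, limma). In all, 8 of the 19 members measured were called higher and 0 lower, beside 0.75% and 0.11% of all genes. A positive difference was found in 14, and the median over the list was 0.72. That median is the value of *Cldn18*, which, like *Lyz1*, exceeded the floor in the 4 arrays required for a test only through tumors 13 to 16. The median and the count of 14 are therefore no support. *Hopx* (-0.63), *Aqp5* (-0.51), *Foxf1* (-0.20), *Etv5* (-0.18) and *Nkx2-1* (-0.10) had negative differences and were not called. *Nkx2-1*, the transcription factor of lung epithelium, was at or within 0.01 of the floor (3.55) in tumors 13 to 16 and at most 3.87 in tumors 1 to 9, but its probe set was also at 3.57 in the tissue mix that includes lung, so it does not bear on lung RNA here. None of the 10 ciliated cell genes measured was called, and their median difference was 0.00.

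The mean log2 level over the 19 lung genes was 7.20, 6.17, 6.33 and 7.28 in tumors 13, 14, 15 and 16, and 5.11 to 5.68 in tumors 1 to 9. The highest SS tumor reached 5.36. All 4 of tumors 13 to 16 and 5 of tumors 1 to 9 (2, 3, 4, 6 and 8) lay above that value, tumors 2 and 6 by less than 0.01.

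**Figure D2:**
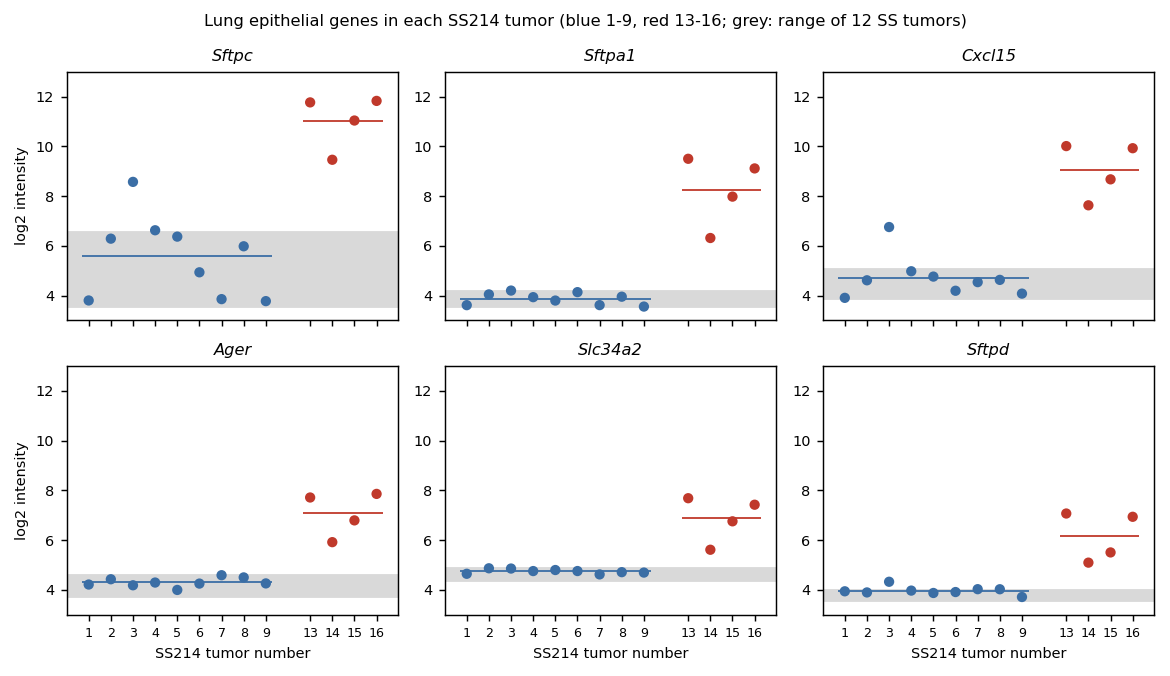
Log2 intensity (y axis) of 6 lung epithelial genes in each SS214 tumor (x axis, tumor number). Points are single tumors, short lines are the group means, blue is tumors 1 to 9, red is tumors 13 to 16, and the grey band spans the 12 SS tumors. All 4 red points lie above all 9 blue points in each gene, and tumor 3 is the highest blue point in *Sftpc* (8.57) and *Cxcl15* (6.76).

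For the genes called higher outside the lung list, the mean level was higher in each of the 4 tumors than in any of tumors 1 to 9, although single genes overlapped. The mean over the 108 higher genes was 7.58, 7.34, 7.97 and 7.42 in tumors 13 to 16, and it ran from 5.35 in tumor 3 to 6.63 in tumor 7 among tumors 1 to 9. SS tumors ran from 5.75 to 6.92 with a median of 6.26. These genes were chosen for this difference, so the values describe them and support nothing. Both groups were also compared with the same SS tumors. Of the 108, 63 were called higher than SS in tumors 13 to 16 and 6 lower than SS in tumors 1 to 9. Over all genes these comparisons called 2.65% higher and 1.87% lower. The 108 were picked by values on the same arrays, so their shares are largely set by that choice and show no enrichment.

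Matrix genes of fibroblasts were among the calls. Of 17 members measured, 3 were called higher and 0 lower, beside 0.75% and 0.11% of all genes. The groups did not overlap in 5, all higher, beside 1.5% of all genes. In 16 the difference was positive, and the median was 1.26 against -0.01 over all genes. *Lum*, the collagen-binding proteoglycan lumican, stood at 10.50, 9.75, 11.14 and 10.97 against 7.63, 9.37 and 9.85 in tumors 1 to 9 (difference 1.38 ± 0.35, adjusted p = 0.0492, limma). *Dpt* (dermatopontin), which helps collagen fibrils assemble, stood at 9.79, 9.33, 10.69 and 10.46 against 7.34, 8.43 and 9.38 (difference 1.48 ± 0.34, adjusted p = 0.0353, limma). *Clec3b* (tetranectin) stood at 7.72, 7.40, 8.83 and 7.81 against 5.25, 6.44 and 7.52 (difference 1.49 ± 0.33, adjusted p = 0.0325, limma). Tumor 3 was the lowest of all 13 tumors in *Lum*, *Dpt* and *Clec3b*, and the groups overlapped in each of the 3.

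The mean over the matrix list was 9.62, 9.34, 9.91 and 9.50 in tumors 13 to 16 and 7.18 to 9.04 in tumors 1 to 9, without overlap. Against SS tumors the median of the list was 0.57 in tumors 13 to 16 and -0.35 in tumors 1 to 9, both taken from the same SS tumors. Called matrix genes outside that list included *Col11a1*, a fibrillar collagen of cartilage and embryonic matrix, at 8.53, 7.18, 8.40 and 7.62 against 3.86, 6.03 and 7.12 (difference 1.96 ± 0.48, adjusted p = 0.0439, limma). Only *Col11a1* was called among the 19 members measured of the cartilage list, whose median was 0.02, beside 0.75% of all genes called higher.

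Other called genes code for receptors and secreted proteins. *Itga8*, an integrin subunit of mesenchymal and contractile cells, stood at 6.02, 5.32, 5.95 and 5.79 against 4.00, 4.24 and 4.63 (difference 1.49 ± 0.13, adjusted p = 0.000359, limma). *Angptl1*, a secreted angiopoietin-like protein, stood at 6.97, 7.18, 8.56 and 6.76 against 4.18, 4.98 and 5.56 (difference 2.38 ± 0.35, adjusted p = 0.00645, limma). *Npr3*, the clearance receptor of natriuretic peptides, stood at 7.70, 7.83, 8.27 and 6.49 against 3.71, 5.18 and 6.36 (difference 2.27 ± 0.46, adjusted p = 0.0244, limma). None of these 3 overlapped between the groups. *Itga8* also lay at 9.03 in the tissue mix and between 3.91 and 5.05 in SS tumors.

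*Serpinb1a*, an inhibitor of neutrophil proteases, stood at 9.79, 9.65, 10.25 and 10.16 against 7.30, 7.99 and 8.88 (difference 1.91 ± 0.26, adjusted p = 0.00395, limma). *Dio2*, the enzyme that activates thyroid hormone, stood at 7.17, 7.52, 7.25 and 6.74 against 4.24, 5.43 and 6.14 (difference 1.79 ± 0.27, adjusted p = 0.00645, limma). *Hc*, complement component C5, was higher by 1.53 ± 0.19 (adjusted p = 0.00164, limma). *Itga8*, *Hc* and *Cd200r4*, which comes up below, fell outside the naming rule and were chosen after their values were seen.

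*Tbx20*, a T-box factor of heart and mesenchyme, stood at 7.20, 7.06, 6.88 and 6.01 against 3.75, 4.35 and 5.94 (difference 2.03 ± 0.41, adjusted p = 0.0244, limma). Its SS tumors spread from 3.81 to 7.85, and the difference from them was 0.73 in tumors 13 to 16 and -1.30 in tumors 1 to 9. *Lhx8*, a LIM homeobox factor, was higher by 1.02 ± 0.26, and *Grb10*, an imprinted adaptor that restrains insulin and IGF signalling, by 1.25 ± 0.21. Among secreted Wnt antagonists, *Wif1* was higher by 1.50 ± 0.35 and *Dkk2* by 1.27 ± 0.25. They were the only called members of the 19 measured in the Wnt target list, whose median was 0.01. Over all genes 0.75% were called higher.

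Mature skeletal muscle genes had positive differences throughout, but none was called. All 20 members measured of the skeletal muscle list had a positive difference, with a median of 1.35, and 0 were called. The mean over the list was 11.38, 11.53, 12.26 and 11.54 in tumors 13 to 16, and it ran from 7.96 in tumor 9 and 8.48 in tumor 3 to 11.93 in tumor 7. Tumors 2 (11.38) and 7 thus lay within or near the range of tumors 13 to 16, and SS tumors ran from 9.21 to 11.75.

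In the list of embryonic and slow muscle genes, 2 of 18 members were called higher, beside 0.75% of all genes. Of the 18, 17 were positive and the median was 1.03. *Mybph*, a myosin-binding protein of developing muscle, stood at 8.48, 8.79, 9.80 and 8.81 against 4.50, 5.66 and 8.23 (difference 2.67 ± 0.67, adjusted p = 0.0482, limma). *Myf5*, the first of the myogenic regulators to be switched on in the embryo, stood at 4.04, 3.82, 5.39 and 5.25 against 3.55, 3.55 and 3.78 (adjusted p = 0.0301, limma), so that tumors 1 to 9 lay at or near the floor. Only tumors 2 and 7 of these exceeded it, so *Myf5* reached the 4 arrays needed for testing through tumors 13 to 16. The call of *Myf5* is therefore no support, and it was lost under 11 of 26 settings. *Sypl2*, a membrane protein of the muscle triad outside both lists, stood at 8.14, 7.91, 9.39 and 8.28 against 4.71, 5.70 and 7.58 (difference 2.46 ± 0.46, adjusted p = 0.0195, limma).

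Smooth muscle genes gave 2 calls among 10 members, beside 0.75% of all genes called higher. All 10 were positive, with a median of 1.06. *Cnn1* (calponin), which binds actin in contractile cells, stood at 8.13, 8.77, 10.32 and 8.52 against 4.34, 6.27 and 8.21 (difference 2.83 ± 0.63, adjusted p = 0.0325, limma). The groups overlapped in it, with tumor 6 (8.21) above tumor 13. *Actg2*, the enteric smooth muscle actin, was higher by 1.14 ± 0.25 (adjusted p = 0.0309, limma). The mean over the list was 7.78, 7.99, 8.66 and 8.04 in tumors 13 to 16 and 6.11 to 7.81 in tumors 1 to 9, with tumor 7 the highest of the 9.

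Of 12 mast cell genes, all 12 had a positive difference, with a median of 0.93. Called higher were 2 of them, beside 0.75% of all genes. *Kit*, the receptor for stem cell factor, stood at 7.43, 6.96, 6.58 and 6.55 against 5.17, 5.87 and 6.55 (difference 1.06 ± 0.25, adjusted p = 0.036, limma). *Ms4a2*, the beta chain of the IgE receptor, stood at 5.51, 5.08, 5.08 and 5.12 against 3.70, 4.08 and 4.91 (difference 1.10 ± 0.18, adjusted p = 0.012, limma). The adipocyte list (11 measured, median 0.91) and the YAP target list (11 measured, median 0.82) had no called member.

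The genes lower in tumors 13 to 16 were fewer, and their largest difference was -1.79. Of the 17, 8 did not overlap between the groups. *Tbx2*, a T-box repressor of limb and mesenchyme, stood at 7.47, 7.31, 6.45 and 7.04 against 7.71, 8.27 and 9.20 (difference -1.26 ± 0.28, adjusted p = 0.0314, limma). *Nr5a2*, a nuclear receptor of early embryo and gut, stood at 4.96, 5.36, 4.88 and 5.02 against 5.46, 6.34 and 7.43 (difference -1.25 ± 0.30, adjusted p = 0.0396, limma). *Ndufa4l2*, a mitochondrial protein induced by low oxygen, stood at 6.22, 5.92, 5.77 and 6.10 against 6.31, 7.31 and 7.66 (difference -1.19 ± 0.24, adjusted p = 0.0231, limma). In SS tumors these 3 spanned 7.73 to 10.03, 4.83 to 7.55 and 5.50 to 7.84. The hypoxia list, which does not hold *Ndufa4l2*, had 13 positive differences among 16 members measured, with a median of 0.36. Only *Pfkfb4* was called in it, higher by 1.01, and 0 were called lower, beside 0.75% higher and 0.11% lower over all genes.

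The other lower genes without overlap were *Tmem200c*, *Zkscan16*, *Cideb*, *Cxxc4*, an inhibitor of Wnt signalling, and *Ttr*, the carrier transthyretin. Their differences were -1.09, -1.07, -1.05, -1.01 and -1.01. *Zkscan16*, a zinc finger gene, had the smallest standard error among these 5 (0.16). The remaining 9 overlapped, led by 1700006J14Rik at -1.79, *Cartpt*, a neuropeptide precursor, at -1.50 and *Nrn1* (neuritin) at -1.30. The mean over the 17 genes was 6.95, 7.05, 6.28 and 6.77 in tumors 13 to 16 and 7.35 to 8.34 in tumors 1 to 9, with tumor 7 the lowest of the 9. Of the 17, 7 were also called lower than in SS tumors in tumors 13 to 16, and 0 were called higher than in SS tumors in tumors 1 to 9. That last comparison called 0.815% of all genes higher, and the first called 0.829% lower. The 17 were picked for low values on the same arrays, so their share is largely set by that choice.

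The programs that describe growth and lineage gave few or no calls, and 29 of all 38 program lists had none. Over all genes 0.75% were called higher and 0.11% lower. At these shares a list of this size holds few calls or none, so 0 calls says little about any list. Of 36 cell cycle genes 0 were called, with a median of -0.09, and of 31 HOX genes 0 were called, 7 were positive and the median was -0.31. The 24 SWI/SNF subunits and 29 Polycomb subunits measured gave 0 calls, with medians of -0.01 and 0.00, and 16 interferon-stimulated genes gave 0 with a median of -0.04. At an unadjusted p under 0.05, limma passed 3541 genes in all (22.9%).

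The *miR-214* locus did not separate the groups at the threshold. *Dnm3os*, the transcript that holds *miR-214*, stood at 10.12, 10.06, 9.64 and 9.78 in tumors 13 to 16 and at 9.23, 9.64 and 10.22 in tumors 1 to 9 (difference 0.28 ± 0.17, adjusted p = 0.352, limma). Beside the same SS tumors, it was higher by 1.66 in tumors 13 to 16 (adjusted p = 0.0177, limma) and by 1.38 in tumors 1 to 9 (adjusted p = 0.00221, limma). The locus list, with *Dnm3*, *Twist1* and *Twist2*, had 0 calls among 4 members. Whether the *Dnm3os* probe set reads RNA of the introduced construct was not tested.

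Of the 10 candidate *miR-214* targets measured, 0 were called in either direction, 8 had a positive difference and the median was 0.19. *Lats2*, a kinase of the Hippo pathway, had the largest of them, 0.90 ± 0.23 (adjusted p = 0.0516, limma). The sex chromosome genes, 8 measured, gave 0 calls between the groups. *Xist*, the RNA of the inactive X chromosome, was 7.56 in tumor 3 and 9.89 to 11.53 in the other 12, and the Y-linked *Uty* was highest in tumor 3, at 8.88 against 4.98 to 7.89. These tumors are mixtures of eMC-derived and host cells.

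Of 8 measures of array quality, the 18S level and the *Actb* 3′ to 5′ ratio differed between the groups before adjustment. The 3′ to 5′ ratios of *Gapdh* and *Tfrc* did not (exact permutation p = 0.664 and 0.737). The control probe sets for 18S RNA averaged 12.02 ± 0.27 in tumors 13 to 16 and 11.41 ± 0.36 in tumors 1 to 9 (SD, n = 4 and 9, exact permutation p = 0.0140, two-sided, 715 arrangements). The 3′ to 5′ ratio of *Actb*, a measure of RNA integrity on the log2 scale, averaged 0.287 ± 0.079 and 0.476 ± 0.148 (exact permutation p = 0.0224). Adjusted over 8 measures, both had p = 0.0895 by Benjamini-Hochberg on the exact permutation values, and no measure passed. In SS tumors the *Actb* ratio averaged 0.871. The *Gapdh* ratio averaged 0.849 there, against 0.021 in tumors 13 to 16 and 0.072 in tumors 1 to 9. The poly-A spike controls averaged 6.07 there, against 7.48 and 7.54. No comparison with SS tumors was adjusted for these measures.

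With the 18S level as a covariate in limma, 7 genes were called higher and 0 lower, and with the *Actb* ratio 8 and 0. At an unadjusted p under 0.05 these fits passed 1594 and 1501 genes in either direction. Both fits called *Cxcl15*, *Sftpa1*, *Ager*, *Sftpd*, *Slc34a2* and *Itga8*, and in addition the first called *Sftpc* and the second *Hc* and *Cd200r4*. All 108 higher genes outside the lung list kept a positive difference in both fits, with medians of 1.10 and 1.04. They were chosen for a large positive difference on the same arrays, so a kept sign here and below supports nothing. With the mean of the skeletal muscle list as a covariate 11 were called higher and 0 lower (1547 at an unadjusted p under 0.05, limma), and all 108 stayed positive with a median of 0.99. With the mean of the lung list as a covariate, which itself separates the groups without overlap, 1 gene was called higher and 1 lower (2698 at an unadjusted p under 0.05, limma), while 107 of the 108 stayed positive with a median of 1.89. The part of array quality or of other cell types in the differences was not tested.

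**Figure D3:**
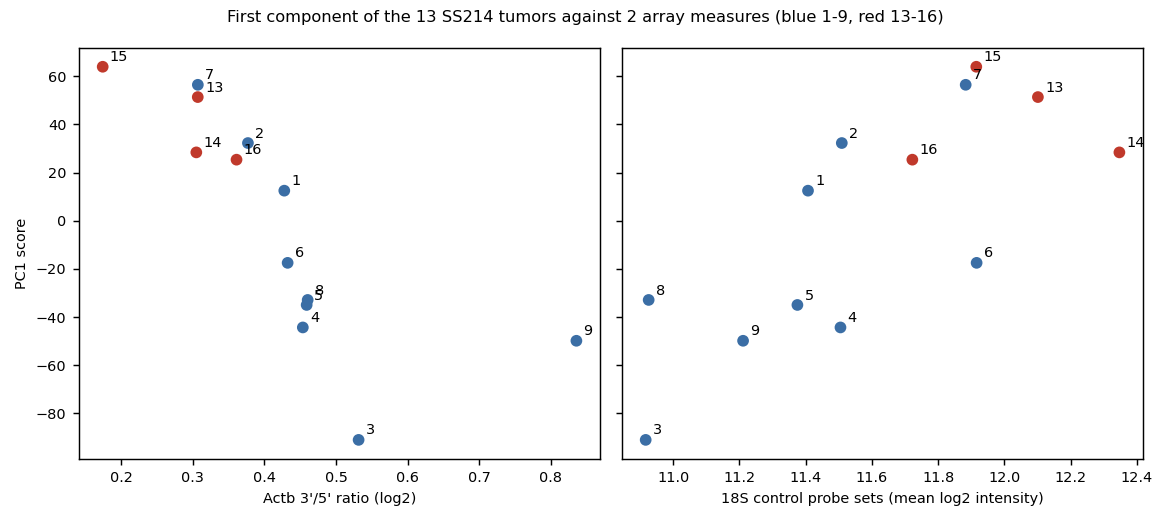
Score on the first principal component (y axis, described in the next paragraph) against the *Actb* 3′ to 5′ ratio (left, log2) and the 18S level (right, log2 intensity) for the 13 SS214 tumors, numbered, with tumors 1 to 9 in blue and 13 to 16 in red. The score falls with the ratio and rises with the 18S level, and tumors 3 and 9 lie at the low end of the score.

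Across all 13 tumors the first axis of variation did not separate the groups. Over the 37227 probe sets tested, the first principal component held 46.0% of the variance and the second 14.0%. Tumor 3 lay at one end of the first component (score -91.0), followed by tumor 9 (-49.8) and tumor 4 (-44.3), and tumors 15 (64.0), 7 (56.5) and 13 (51.4) lay at the other. Tumors 13 to 16 all had positive scores, as did tumors 1, 2 and 7. Without the lung and ciliated cell lists the first component held 46.1%.

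**Figure D4:**
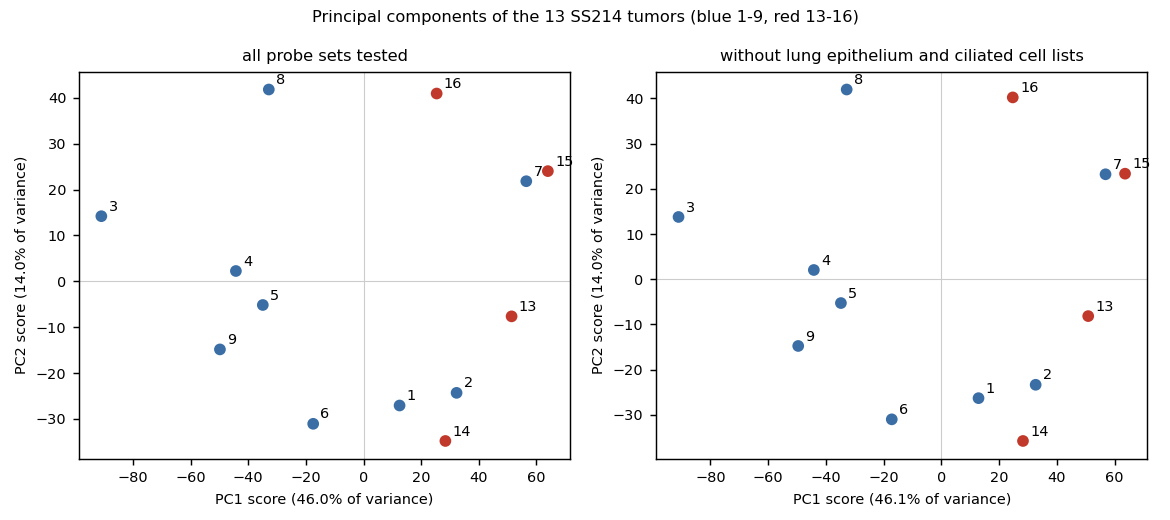
Scores of the 13 SS214 tumors, numbered, on the first 2 principal components of the log2 values, with all probe sets tested (left) and without the lung and ciliated cell lists (right). Tumors 13 to 16 (red) lie on the positive side of the first axis together with tumors 1, 2 and 7 (blue), and the layout is alike in both panels.

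The genes with the highest weights at the positive end of the first component were muscle genes, *Ttn* (titin), *Cmya5*, *Ryr1*, the calcium release channel, and *Myh2*, a fast myosin, followed by the interferon-gamma induced *Cxcl9* and *Iigp1*. The second component was led by genes of fat and of slow muscle, *Ces1d*, *Thrsp* and *Myl3*. The third component held 10.2% of the variance, with *Sftpc*, *Cnn1* and *Cxcl15* of highest weight at its positive end and *Slpi*, *Jchain*, *Iigp1* and *Ms4a4b*, genes of secretory and immune cells, at its negative end.

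Over the 13 tumors, only the *Actb* ratio and the 18S level, of 8 array measures, followed the first component after adjustment. Its score fell with the *Actb* ratio (Pearson's r = -0.76, permutation p = 0.00101, adjusted 0.00808 over 8 measures, and Spearman's rho = -0.92, permutation p = 3e-05, adjusted 0.00024). Without tumors 9 and 15, the farthest in that ratio, r was -0.94. It rose with the 18S level (r = 0.76, permutation p = 0.00292, adjusted 0.0117, and rho = 0.75, permutation p = 0.00494, adjusted 0.0198), and r was 0.71 without tumors 14 and 3. Within tumors 1 to 9 the *Actb* ratio gave r = -0.62 (exact permutation p = 0.0753) and rho = -0.92 (exact permutation p = 0.00131), with r at -0.96 without tumors 9 and 7, and the 18S level gave r = 0.68 (exact permutation p = 0.0425) and rho = 0.72 (exact permutation p = 0.0369), with r at 0.71 without tumors 6 and 3. Adjusted over these 2 measures, the exact permutation p for r was 0.0753 for both, and for rho 0.00262 and 0.0369. Tumors 13 to 16 are too few for a correlation. The other 3′ to 5′ ratios did not follow the first component over the 13 tumors. *Gapdh* gave r = -0.33 (permutation p = 0.270) and *Tfrc* gave r = 0.05 (permutation p = 0.860).

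Pairs of tumors correlated at a median of 0.982 within tumors 13 to 16 (6 pairs), 0.978 within tumors 1 to 9 (36 pairs) and 0.971 between them (36 pairs), over the probe sets tested and as a description. Tumors 14, 15 and 16 each correlated best with tumor 13, while tumor 13 correlated best with tumor 2 (0.986) and tumor 7 best with tumor 13 (0.982). The median SD of a probe set, over those tested, was 0.193 within tumors 13 to 16, 0.195 within tumors 1 to 9 and 0.206 within SS tumors.

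None of the 20 genes with the largest SD over the 13 tumors, outside the lung genes, was called between the groups. *Ttn*, the largest, ran from 4.50 in tumor 9 and 5.18 in tumor 3 to 12.13 in tumor 15, and stood at 10.95, 11.39, 12.13 and 10.37 in tumors 13 to 16 (difference 3.11 ± 1.09, adjusted p = 0.119, limma). *Myh2* and *Ryr1* had differences of 2.52 ± 1.07 and 2.47 ± 1.01 and were not called either.

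An interferon and lymphocyte pattern divided both groups. *Iigp1*, an interferon-induced GTPase, was 11.03, 11.16 and 11.25 in tumors 1, 2 and 7 and 11.87 and 10.57 in tumors 13 and 16, and at most 8.36 in the other 8. *Cxcl9*, a chemokine induced by interferon gamma, was 10.13, 10.80, 9.31, 10.89 and 9.62 in the same tumors and at most 7.51 elsewhere. The mean of the interferon-stimulated list ran from 6.78 to 7.68 in these 5 tumors and from 5.76 to 6.20 in the other 8, and that of the T and NK cell list from 4.92 to 5.61 against 4.16 to 4.35. The 5 tumors were picked from these values, so no test was made of the split.

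B and plasma cell genes were highest in tumors 7 (mean 7.60), 2 (7.31) and 13 (6.40), and *Jchain*, the joining chain of secreted antibodies, was 11.51, 11.27 and 10.45 in them, 10.03, 9.91 and 8.87 in tumors 16, 8 and 9, and lowest in tumor 3, at 4.76. *Glycam1*, a mucin of lymph node venules and mammary gland, was 10.02 in tumor 7, 7.83 in tumor 13 and 6.61 in tumor 16, and at most 4.93 in the other 10. Adipocyte genes were highest in tumor 7 (mean 8.70), then tumors 15 (8.17) and 16 (8.04), and *Thrsp*, a regulator of fat synthesis, was 12.07, 11.02 and 10.87 there. Granulocyte genes set apart tumor 16, with a mean of 8.64, from tumors 13, 14 and 15 at 5.86, 6.09 and 4.93, and *Camp*, the cathelicidin of neutrophil granules, was 11.41 in tumor 16 and 4.18 in tumor 15. Levels of immune and fat genes thus differed among tumors 13 to 16.

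**Figure D5:**
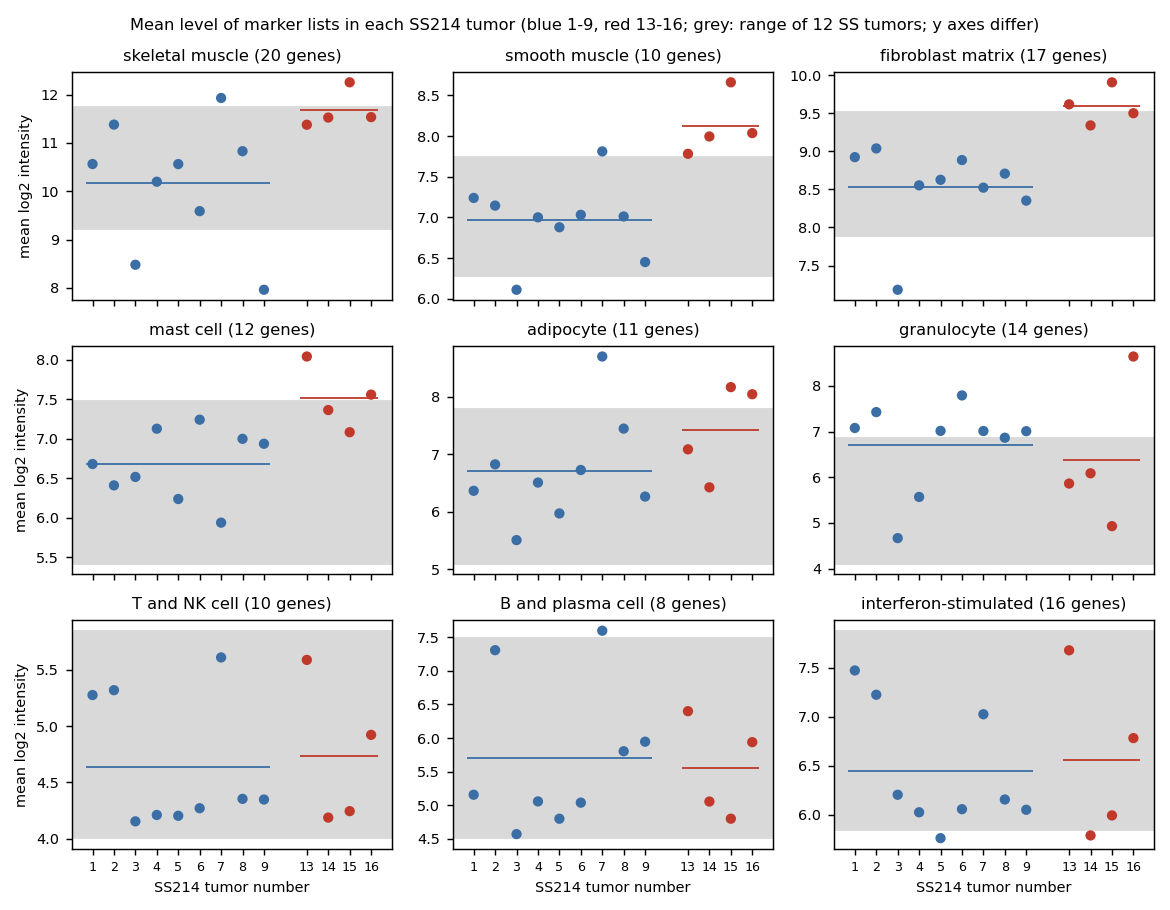
Mean log2 intensity (y axis, own range in each panel) of 9 gene lists in each SS214 tumor (x axis, tumor number). Points are tumors, short lines are group means, blue is tumors 1 to 9, red is tumors 13 to 16, and the grey band spans the 12 SS tumors. The red points lie above all blue points in the fibroblast matrix panel and are split in the granulocyte, T and NK cell, B and plasma cell and interferon panels.

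Set beside the SS tumors that both groups were compared with, 409 of 15441 genes were higher in tumors 13 to 16 (2.65%) and 128 lower (0.829%), and 127 of 15580 were higher in tumors 1 to 9 (0.815%) and 292 lower (1.87%). Without tumors 2, 3, 4, 6 and 8, whose lung list mean lay above the highest SS tumor, the counts for tumors 1 to 9 were 77 and 160. That fit also had fewer arrays. For tumors 13 to 16, 254 were higher without tumor 15, and 218 and 79 were lower without tumor 14 and tumor 16. Because the SS arrays are shared, these counts are given side by side and not compared. The SS arrays also differed from both groups in the array measures given above, and the part of this in the counts was not tested.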

How the data were processed

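The deposited values are linear intensities, 1 for each of 45141 probe sets on 53 arrays, summarized and scaled by the authors. MAS5 is the tool named in the submitters' processing notes, with no version, and GeneSpring in the study's methods. Values ran from 5.36 to 11034, and no second scaling was applied. Of the probe sets, 104 controls (AFFX) were left out of the tests. The platform annotation gave 28898 of the others 1 gene symbol (17097 genes), 551 several and 15588 none. Symbols were updated by gene ID, and probe sets with several symbols named no gene.

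Intensities under 11.7 (the median over arrays of the 20th percentile) were set to that floor and log2 taken. A probe set was tested where at least 4 of the arrays in a comparison exceeded the floor, with limma 3.58.1 under R 4.3.3 (lmFit, eBayes with trend = TRUE) on the arrays of the 2 groups alone, adjusting by Benjamini-Hochberg over all probe sets tested. A gene took its brightest probe set, and dimmer ones did not always share its call. Of the probe sets tested, 1 of 3 was called for *Grb10*, *Tbx20*, *Sypl2*, *Dio2*, *Cxxc4* and *Tmem200c*. For *Itga8*, *Ms4a2*, *Angptl1*, *Ager* and *Serpinb1a* it was 1 of 2. For *Npr3* it was 2 of 3, and for *Cxcl15*, *Sftpa1* and *Col11a1* 2 of 2. Single values over arrays were compared by exact permutation. The steps were tested on simulated data.

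The groups, 24 cell type lists and 38 program lists were chosen with earlier results of these data known, so no list was tested, and the candidate *miR-214* targets are the study's own. The genes named are up to 15 rises and 15 falls among calls without overlap, up to 4 called members of each list, all members of the lung, sex chromosome, *miR-214* locus and candidate target lists, and the 20 genes with the largest SD over the 13 arrays outside the lung lists. Not all are printed, and the others were chosen after their values were seen. The number of arrays limits the precision.

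The alternatives were quantile normalization, no floor or one at the 40th percentile, all probe sets without the filter, other gene summaries, 1 fit of all arrays, the methods' t-test, array weights, covariates and leaving out tumors. The 18S and *Actb* covariates, the fit without tumors 3 and 9 and the repeats of the principal components were added after seeing the data.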

Additional observations from a re-analysis of the deposited data

Results flagged for a closer look

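In 28 of 272 groups of values examined (10.3%), 1 tumor stood far from the others of its group by Dixon's criterion, where chance gives about 1 in 20 groups, here 13.6, and many of the values are related. Tumor 3 accounted for 7 of them, tumor 7 for 6, tumor 9 for 3 and tumors 13 to 16 for 6.

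Among tumors 1 to 9, tumor 3 was high for *Cxcl15* (log2 intensity 6.76, next 4.98) and low for *Lum* (7.63), *Ogn* (5.45), *Col14a1* (5.02), *Pfkfb4* (5.05), *Xist* (7.56) and the mean of the fibroblast matrix list (7.18). Tumor 7 was high for *Glycam1* (10.02, next 3.64) and *Foxo4* (6.55) and low for *Foxf1* (7.43), *Twist1* (8.72), 1700006J14Rik (5.61) and *Islr* (10.14). Tumor 9 was high for *Mdk* (10.60) and for the log2 3′ to 5′ ratios of *Gapdh* (0.483) and *Actb* (0.836).

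Tumor 1 was high for *Scgb1a1* (4.29) and *Muc1* (5.27), tumor 2 for *Myf5* (3.78), tumor 6 for *Ms4a2* (4.91) and tumor 8 for *Lyz1* (3.90), while tumor 5 was low for *Cartpt* (8.15). Several of these lie near the floor of 3.55 on this scale.

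Among tumors 13 to 16, tumor 13 was high for *Ms4a2* (5.51) and *Ezh1* (7.98) and low for the hybridization spikes (8.86), tumor 14 was high for its array median (4.75) and *Nkx2-1* (3.55, 0.001 above the floor), and tumor 15 was high for *Lama2* (7.82).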

How the results depend on the processing

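Beside 116 genes higher and 17 lower in tumors 13 to 16 than in tumors 1 to 9, the counts were 82 and 28 with quantile normalization, where 74.5% of calls were higher against 87.2% and the median of all genes was -0.06, 57 and 8 without the filter, 418 and 39 in 1 fit of all 53 arrays, 352 and 43 with array weights, 51 and 8 by the methods' t-test with Benjamini-Hochberg and 342 and 41 without it, and 274 and 162 at the adjusted p alone. Averaging the probe sets of each gene gave 10 lower. With a covariate they were 71 and 8 (*Gapdh* ratio), 11 and 0 (skeletal muscle mean), 1 and 1 (lung mean), and, added after seeing the data, 7 and 0 (18S) and 8 and 0 (*Actb* ratio). Without tumors 3 and 9 they were 52 and 3, also added after seeing the data. The cause of these shifts was not tested. Leaving out single tumors gave 20 to 355 higher and 0 to 41 lower.

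List medians moved with covariates. The lung list was at 1.37 with the higher floor and -0.064 with the lung mean. With the lung mean, the smooth muscle, mast cell and candidate target medians were 1.61, 0.064 and 0.42, and *Scgb3a2* and *Chil1* changed sign, to -0.051 and -0.42. With the skeletal muscle mean, the skeletal muscle, embryonic and slow muscle, smooth muscle, fibroblast matrix and adipocyte medians were 0.033, 0.14, 0.32, 0.67 and -0.047. With 18S, fibroblast matrix and candidate targets were at 0.70 and -0.038. With the *Actb* ratio, the 3 muscle medians were 0.12, 0.33 and 0.48. Leaving out single tumors gave 0.375 to 0.972 for the lung list, 254 to 506 genes higher and 79 to 218 lower against SS tumors, differences of -0.214 to -0.144 in the *Actb* ratio, 0.507 to 0.716 in 18S and -0.647 to -0.284 in the hybridization spikes, and 39.4 to 49.1% of variance on the first component. Tumors 1 to 9 against SS tumors gave 77 and 160 without the tumors whose lung list mean lay above the highest SS tumor.

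*Sftpa1*, *Cxcl15*, *Ager*, *Sftpd* and *Slc34a2* lost their call under 1 of 27 settings, the lung covariate, and *Sftpc*, *Itga8* and *Hc* under 2. Many other named genes were less stable. *Mybph* and *Lhx8* lost their call under 21 of 27 settings, *Ttr* under 20, *Lum* and *Kit* under 19 and *Col11a1* under 17. *Dpt* and *Wif1* lost it under 16, *Nr5a2* under 15 and *Tbx2* under 13, while *Angptl1* lost it under 4 and *Serpinb1a* under 3. The comparison without tumors high in lung genes could not be fitted, since all 4 of tumors 13 to 16 are among them. No paired analysis was possible because the groups share no tumor number. Array medians lay close to the floor, so differences of dim genes are compressed.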
